A study of Oryza sativa with 23 samples.

Results

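The response of Hacha roots to excess iron was followed here in 5 of the 23 RNA sequencing libraries of a rice (Oryza sativa) series. They are all 2 libraries of Hacha roots under excess iron and all 3 of Hacha roots in the control solution, chosen by their labels. Hacha is a rice line from a cross of CRM 53 and IR 64, and whole roots of 11-day-old plants were sampled. Control plants stood throughout in a full-strength nutrient solution with 50 µM iron as an EDTA chelate at pH 6.2. From day 9 the excess-iron plants stood for 2 days in the same solution with 15 mM iron sulfate at pH 5.2. Acidity and sulfate therefore changed together with iron, and their parts cannot be told apart. The 6 root libraries of a second line, Lachit, in the same solutions were used for the spread between libraries and for one comparison at the end. Whether replicates are separate plants is not stated in the labels. The p-values then measure only how these samples scatter, which may be technical.

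Rice takes up iron in its roots both as ferrous ions, through IRT and NRAMP carriers, and as ferric complexes of deoxymugineic acid, a chelator that grasses build from methionine by way of nicotianamine and secrete. A cascade of bHLH transcription factors switches this machinery on when iron is short. Iron beyond need is stored in ferritin shells and in the vacuole, since free ferrous iron drives the formation of hydroxyl radicals. In flooded acid soils ferrous iron accumulates, and rice grown there can suffer iron toxicity.

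Expression was read as estimated counts per gene and is given as CPM, counts scaled to library size by TMM factors. TPM, which also divides by transcript length, is used where levels of different genes are set side by side. The largest gains and falls among all genes were ranked in CPM, which does not correct for transcript length. A gene was called when its Benjamini-Hochberg adjusted p in the edgeR quasi-likelihood test lay below 0.05. Genes are identified by their RAP locus identifiers. The files do not pair these with names. The names and roles given were written from background knowledge of published loci. They were not checked here on sequence or against an annotation. The members were drawn from 45 lists of known genes, 444 in all, of which 432 were used. Another 5 identifiers were not analysed here and 7 had gene models far shorter than the expected coding sequence.

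Over the whole transcriptome, 17128 of the 27479 tested genes were called, 62.3%. Of all tested genes, 29.6% rose and 32.7% fell, and the counts of list members below are to be read against these shares. The lists were chosen with earlier results of these data known, so the counts describe the members and test nothing. The libraries of the groups did not overlap for 78% of the tested genes, so separation of single genes was common. It was also required of the up to 2 risers and 2 fallers named by rule in each list, and is no finding for them. The median log2 fold change over all genes was -0.05, and -0.31 when libraries were scaled by their totals alone, which gave 6110 genes higher and 11232 lower, against 8145 and 8983. Changes are thus relative to the typical gene. The 5 libraries held 16659578 to 24576712 estimated counts. Of the root markers, RCc3 (OS02G0662000), named for its abundance in roots, stood at 311, 400 and 499 CPM in the control libraries. RCc2 (OS02G0662100) had no counts in any of the 11 root libraries. Summed over 4 root markers, these 2 with Lsi1 and Lsi2, CPM by library totals were 1825 to 2211 in control roots. They were 273 to 309 in excess-iron roots, against 2.36 to 5.73 in excess-iron leaves of Hacha. Summed over 10 genes of the photosynthetic apparatus, green tissue markers stood at 154 to 373 CPM in control and 157 to 266 CPM in excess-iron roots, against 66727 to 91143 CPM in control leaves of Hacha. None of them was called, and their part in the results was not tested. Without control library 3, 2 of them were called higher under excess iron. Of 5 genes often used as references in quantitative PCR, 4 fell. Actin ACT1 (OS03G0718100) stood at 379, 444 and 476 CPM in control and 185 and 195 CPM under excess iron, and glyceraldehyde phosphate dehydrogenase GAPDH (OS04G0486600) had a log2 fold change of -2.04.

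One control library stood apart in stress genes. Control library 1 was over 2-fold above both other controls for 3.05% of all tested genes, against 0.921% and 1.46% for control libraries 2 and 3. Among genes of the abscisic acid response the number was 7 of 13, among abscisic acid synthesis and breakdown 3 of 6, among NAC and DREB factors 5 of 14 and among jasmonate genes 4 of 18. No iron uptake, phytosiderophore, cell cycle or cellulose synthase gene was among them. Results of the NAC and DREB, WRKY, pathogenesis-related, abscisic acid and jasmonate lists are therefore given with and without this library. The counts of the other stress lists below are those with all libraries. Without control library 1, 6 genes of low oxygen rose and 2 fell, and 5 and 2 tau glutathione transferases. The counts were 4 and 1 for enzymes that remove reactive oxygen, 7 and 2 for heat shock genes and 9 and 2 for diterpenoid phytoalexins.

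**Figure D1:**
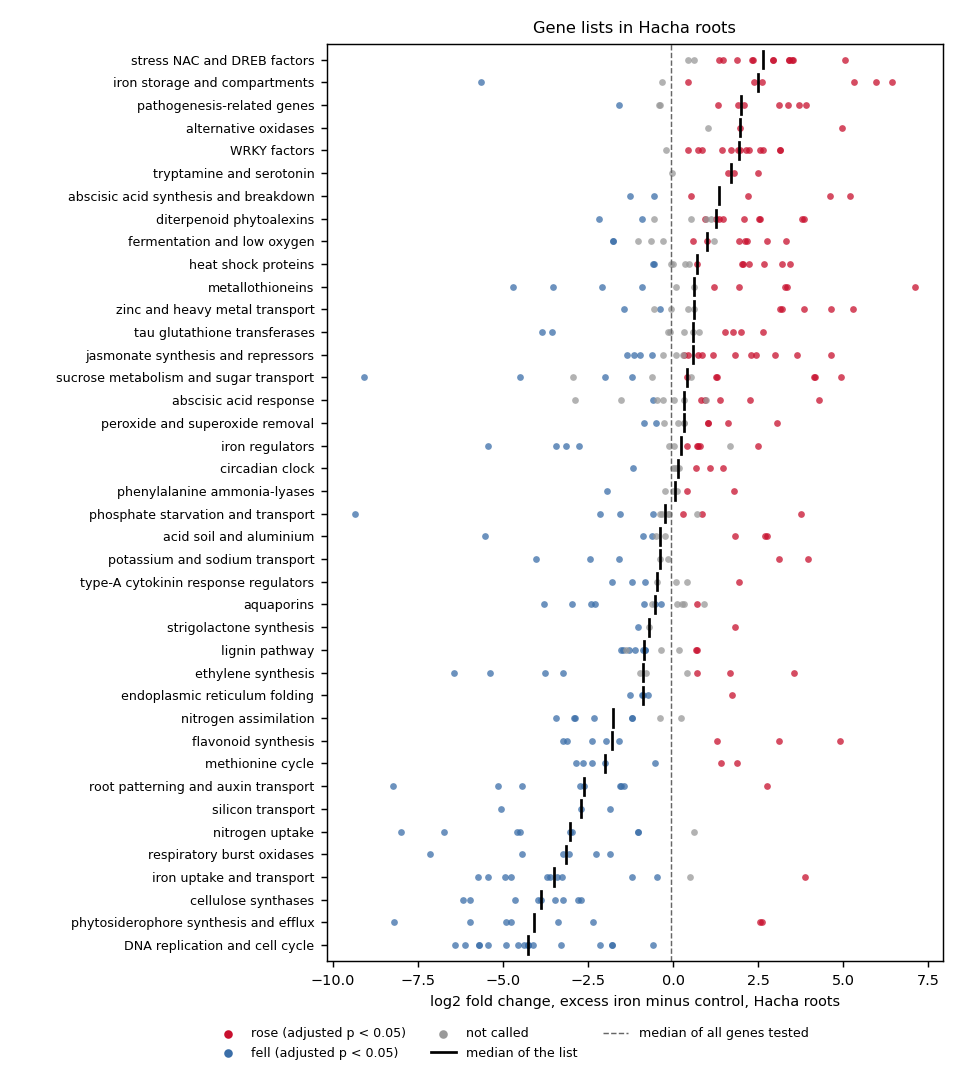
Log2 fold changes (excess iron minus control, horizontal axis) of the tested members of each gene list with at least 3 tested members in Hacha roots. Each point is a gene, red where it rose, blue where it fell and grey where it was not called. Black bars mark list medians, from -4.27 for DNA replication and cell cycle to 2.65 for stress NAC and DREB factors, and the dashed line the median of all tested genes.

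Most genes of iron acquisition fell. Of 12 tested genes of uptake and transport, 10 fell and 1 rose, with a median log2 fold change of -3.51. Of 8 genes of phytosiderophore synthesis and efflux, 6 fell and 2 rose, with a median of -4.08.

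The ferrous iron carrier OsIRT1 (OS03G0667500) stood at 238, 260 and 240 CPM in the control libraries and 3.12 and 6.29 CPM under excess iron. Both excess-iron libraries lay far below all controls, at -5.74 on the log2 scale (SE 0.39, adjusted p = 7.05e-07). Its neighbour and close relative OsIRT2 (OS03G0667300) went from 25.9, 27.1 and 25.1 to 0.302 and 0.947 CPM (log2 fold change -5.45, SE 0.39, adjusted p = 9.26e-07). The metal carriers OsNRAMP1 (OS07G0258400) and OsNRAMP5 (OS07G0257200), the latter the main root entry for manganese, fell by 4.75 and 3.25 on the log2 scale (SE 0.27 and 0.27). The transporter of ferric deoxymugineic acid, OsYSL15 (OS02G0650300), was the most abundant of these carriers in control roots by TPM. It held 765, 1045 and 1009 TPM in control and 19.1 and 30.1 TPM under excess iron (log2 fold change -4.94, SE 0.42, adjusted p = 2.8e-06). Its relatives OsYSL2 (OS02G0649900), OsYSL16 (OS04G0542800) and OsYSL6 (OS04G0390500) fell by 3.40, 3.69 and 1.20, and the oligopeptide transporter family gene OsOPT7 (OS03G0751100) by 3.62.

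The phenolic exporter PEZ1 (OS03G0571900) rose from 3.8, 2.76 and 3.43 to 51.2 and 47.8 CPM (log2 fold change 3.89, SE 0.24) and was the one riser of the uptake and transport list. Its neighbour PEZ2 (OS03G0572900) fell by 0.47, a call that was lost without excess-iron library 2. The citrate exporter OsFRDL1 (OS03G0216700), which loads iron into the xylem, stood at a log2 change of 0.49 (SE 0.23, adjusted p = 0.0772) and was not called. It was called as a rise without control library 3 (0.73) or with DESeq2 (0.52).

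Nicotianamine synthase transcripts, abundant in control roots, were nearly lost. OsNAS2 (OS03G0307200) went from 1705, 2354 and 2673 CPM in control to 4.43 and 11 CPM under excess iron (log2 fold change -8.20, SE 1.17, adjusted p = 0.00011). OsNAS1 (OS03G0307300), beside it on chromosome 3, went from 1924, 2514 and 2843 to 29.2 and 48.5 CPM (log2 fold change -5.97, SE 0.76, adjusted p = 4.66e-05). The 2 genes are close copies, so the division of reads between them by the counting program is uncertain. The third synthase, OsNAS3 (OS07G0689600), moved the other way, from 6.52, 8.76 and 6.91 CPM to 47.9 and 38.3 CPM, a rise of 2.54 (SE 0.27, adjusted p = 1.36e-05). In TPM the 3 synthases together fell from 3816, 5103 and 5749 in control to 61 and 70.5. Downstream, the aminotransferase OsNAAT1 (OS02G0306401) and the deoxymugineic acid synthase OsDMAS1 (OS03G0237100) fell by 2.35 and 3.39. The exporter of deoxymugineic acid, TOM1 (OS11G0134900), fell by 4.76 and the nicotianamine exporter ENA1 (OS11G0151500) by 4.91, whereas TOM2 (OS11G0135000), next to TOM1 and named for its similarity to it, rose from 4.02, 4.98 and 4.61 to 34.9 and 20.2 CPM (log2 fold change 2.60, SE 0.35). Reads of this pair too may have been divided in error.

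The methionine cycle, which supplies S-adenosylmethionine to these enzymes, fell in 5 of 7 members and rose in 2. Methylthioribose kinase OsMTK1 (OS04G0669800), a recycling enzyme, fell from 357, 482 and 512 to 64.7 and 59.9 CPM (log2 fold change -2.85, SE 0.30). OsIDI2 (OS11G0216900), the next enzyme of the cycle, fell from 256, 362 and 369 to 52.1 and 53.1 CPM (log2 fold change -2.65, SE 0.34), and the nucleosidase OsMTN (OS06G0112200) by 1.99. Both excess-iron libraries lay below the controls for each of these, which the rule that named OsMTK1 and OsIDI2 required. Among S-adenosylmethionine synthetases, OsSAMS2 (OS01G0323600) fell from 2100, 2671 and 2919 to 481 and 513 CPM (log2 fold change -2.37, SE 0.20), among the largest falls in CPM of all genes, and OsSAMS1 (OS05G0135700) by 0.54, a call lost without excess-iron library 2. The scarcer OsSAMS3 (OS01G0293000) rose from 31.2, 31.9 and 28.3 to 123 and 101 CPM (log2 fold change 1.88, SE 0.14), with 26.3 TPM in control against 1938 TPM for OsSAMS2. The acireductone dioxygenase OsARD (OS10G0419400) rose from 15.8, 11.7 and 23.4 to 46.8 and 43.4 CPM (log2 fold change 1.41, SE 0.31).

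Among the regulators, 4 of 12 fell and 5 rose, and the median of 0.23 turned to -0.04 when scaled by library totals. The 4 that fell are known to be induced when iron is short. OsIRO2 (OS01G0952800), the bHLH factor that drives the phytosiderophore genes, went from 496, 651 and 599 CPM to 11.6 and 15.3 CPM (log2 fold change -5.44, SE 0.34, adjusted p = 4.7e-07). Its partner OsbHLH156 (OS04G0381700) fell by 3.15 and the repressor OsIRO3 (OS03G0379300) from 116, 127 and 131 to 10.4 and 12.5 CPM (log2 fold change -3.45, SE 0.18). OsIMA1 (OS01G0647200), which encodes a short IRON MAN peptide, fell by 2.77. OsIMA2 (OS07G0142100) stood at a log2 change of 1.68 (SE 0.74, adjusted p = 0.0691) that was not called. It was called as a rise with only the 5 Hacha root libraries in the fit (1.69). The upstream bHLH factors OsPRI1 (OS08G0138500), OsPRI2 (OS05G0455400), OsPRI3 (OS02G0116600) and OsbHLH057 (OS07G0543000) rose by 0.42, 0.73, 0.78 and 0.69. Without excess-iron library 2 the calls of OsPRI1 and OsPRI2 were lost, and OsPRI1 was not called with scaling by library totals (0.16). IDEF1 (OS08G0101000), a transcription factor reported to bind iron, rose from 32, 23.3 and 17.1 to 133 and 140 CPM (log2 fold change 2.50, SE 0.23, adjusted p = 4.56e-06). The ubiquitin ligase gene OsHRZ2 (OS05G0551000), a negative regulator of the response, and the NAC factor IDEF2 (OS05G0426200) had log2 fold changes of -0.13 (SE 0.37) and 0.03 (SE 0.12) and were not called.

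**Figure D2:**
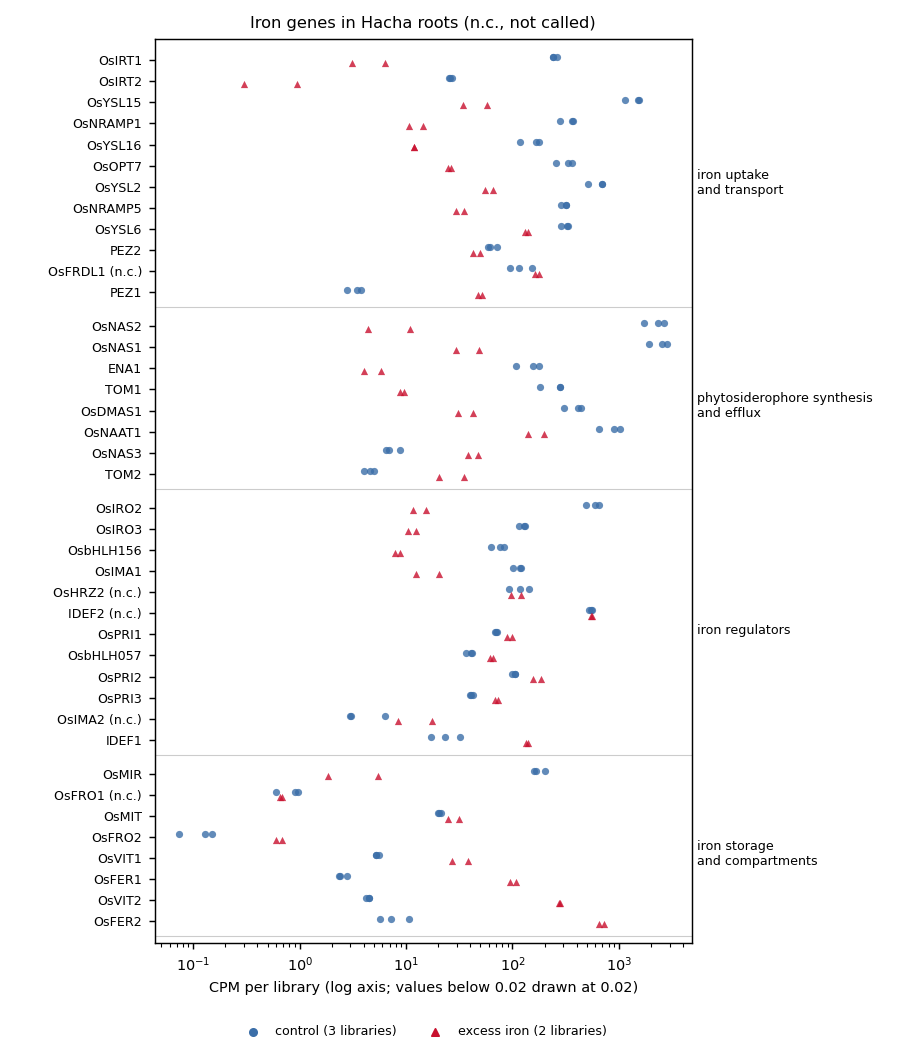
CPM per library (horizontal log axis) of the tested iron genes in Hacha roots, with 3 control libraries as blue circles and 2 excess-iron libraries as red triangles. The genes of uptake and phytosiderophores mostly shift to the left under excess iron, with OsNAS2 from above 1000 CPM to 4.43 and 11 CPM, whereas the ferritins and OsVIT2 shift to the right.

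Genes of iron storage mostly moved in the opposite direction. Of 8 tested genes of storage, compartments and reduction, 6 rose and 1 fell. The ferritin gene OsFER2 (OS12G0106000) stood at 10.7, 7.29 and 5.74 CPM in control and 657 and 724 CPM under excess iron (log2 fold change 6.44, SE 0.29, adjusted p = 1.24e-07). Its near-identical copy OsFER1 (OS11G0106700) went from 2.4, 2.79 and 2.35 to 107 and 94.8 CPM (log2 fold change 5.32, SE 0.28, adjusted p = 2.06e-07), with the division of reads between the copies uncertain. Summed over both, ferritin transcripts stood at 15.9, 12.2 and 9.65 TPM in control and 736 and 742 TPM under excess iron. Both excess-iron libraries were high and none of the controls came near them. OsVIT2 (OS09G0396900), which loads iron into the vacuole, rose from 4.46, 4.53 and 4.22 to 272 and 278 CPM (log2 fold change 5.96, SE 0.60, adjusted p = 8.25e-06), and its relative OsVIT1 (OS04G0463400) by 2.61. The mitochondrial iron importer OsMIT (OS03G0296800) rose by 0.45, a call lost without excess-iron library 2 or with scaling by library totals (0.19). OsMIR (OS12G0282000), a rice gene induced by iron shortage, fell from 159, 203 and 165 to 1.86 and 5.41 CPM (log2 fold change -5.64, SE 0.71, adjusted p = 4.45e-05). Both ferric reductase genes were scarce in roots, with OsFRO1 (OS04G0444800) and OsFRO2 (OS04G0578600) below 1 CPM in every Hacha root library. OsFRO2 was called as a rise from 0.0737, 0.151 and 0.13 to 0.604 and 0.676 CPM (log2 fold change 2.39, SE 0.68), but not when either excess-iron library was left out.

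Most zinc carriers rose while the heavy metal pumps changed little. Of 7 ZIP carriers 5 rose and 1 fell. The zinc uptake carriers OsZIP9 (OS05G0472400) and OsZIP5 (OS05G0472700), neighbours on chromosome 5, rose strongly from low levels. OsZIP9 went from 0.295, 0.34 and 0.261 to 11 and 13 CPM (log2 fold change 5.30, SE 0.27) and OsZIP5 from 1.14, 0.717 and 1.26 to 26.1 and 25.8 CPM (log2 fold change 4.64, SE 0.29). OsZIP8 (OS07G0232800) and OsZIP4 (OS08G0207500) rose by 3.84 and 3.19, OsZIP10 (OS06G0566300) remained below 2 CPM with a rise that was lost without excess-iron library 1, and OsZIP1 (OS01G0972200) fell from 44.4, 49.6 and 43.3 to 18.7 and 15.1 CPM (log2 fold change -1.43, SE 0.22). Of 4 heavy metal ATPases 1 was called, the vacuolar cadmium pump OsHMA3 (OS07G0232900), which fell by 0.37 and lost its call without any one of 4 of the 5 libraries.

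Metallothioneins, small cysteine-rich proteins that bind metals and scavenge radicals, moved in both directions. Of 11 tested genes 5 rose and 4 fell. OsMT3a (OS01G0200700) went from 19.1, 13.7 and 21.1 CPM in control to 2622 and 2307 CPM under excess iron (log2 fold change 7.10, SE 0.35, adjusted p = 1.78e-07), the largest rise among all list members. OsMT1b (OS03G0288000) rose from 500, 226 and 180 to 2562 and 3629 CPM (log2 fold change 3.36, SE 0.38), and the type 1 gene OS12G0570700 from 2674, 2845 and 2723 to 10661 and 10370 CPM, the third largest gain in CPM among all genes. On the falling side, OsMT2b (OS05G0111300) went from 257, 197 and 203 to 5.74 and 11.3 CPM (log2 fold change -4.70, SE 0.42, adjusted p = 3.85e-06) and OsMT2a (OS01G0974200) fell from 930, 706 and 785 to 75 and 63.4 CPM (log2 fold change -3.54, SE 0.22). The type 1 gene OS12G0568500 dropped from 5021, 6084 and 5591 to 1170 and 1434 CPM. The type 1 genes of chromosome 12 are similar in sequence, and reads may have been divided between them in error.

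Genes of acid-soil tolerance split evenly, with 3 risers and 3 fallers among 8 tested. The zinc finger regulator ART1 (OS12G0170500) was scarce, at 1.22, 0.831 and 1.09 CPM in control and 0.201 and 1.35 CPM under excess iron, and the groups overlapped. Among the genes it is known to regulate, the aluminium carrier Nrat1 (OS02G0131800) fell from 62, 81.5 and 78.1 to 1.11 and 2.23 CPM (log2 fold change -5.51, SE 0.34, adjusted p = 4.33e-07). In contrast OsCDT3 (OS01G0178300), a cysteine-rich peptide, rose from 3.43, 3.85 and 3.69 to 26 and 23.3 CPM (log2 fold change 2.75, SE 0.16) and the transporter subunit STAR2 (OS05G0119000) from 25.8, 24.5 and 27.3 to 143 and 195 CPM (log2 fold change 2.71, SE 0.19). The partner subunit STAR1 (OS06G0695800) was not called (-0.24, SE 0.22), except as a fall with scaling by library totals (-0.50) or with limma on log2(TPM + 1) (-0.61). The magnesium transporter OsMGT1 (OS01G0869200) rose by 1.82. The expansin OsEXPA10 (OS04G0583500) fell from 24.3, 26.9 and 26.3 to 15.5 and 12.3 CPM (log2 fold change -0.89, SE 0.14) and vacuolar OsALS1 (OS03G0755100) by 0.61.

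Transcripts for the uptake of other nutrients fell for several elements. All 3 silicon transporters fell. The influx channel Lsi1 (OS02G0745100) fell from 631, 774 and 736 to 206 and 191 CPM (log2 fold change -1.85, SE 0.16), the exporter Lsi2 (OS03G0107300) from 711, 801 and 816 to 126 and 115 CPM (log2 fold change -2.69, SE 0.20), and Lsi6 (OS06G0228200), which unloads silicon from the xylem in leaves, from 29.9, 37 and 47 to 1.21 and 1.08 CPM (log2 fold change -5.04, SE 0.45). Both root sulfate transporters fell. The excess-iron solution also brought additional sulfate. OsSULTR1;2 (OS03G0196000) went from 82.5, 119 and 143 to 1.91 and 3.25 CPM (log2 fold change -5.50, SE 0.36). OsSULTR1;1 (OS03G0195800) went from 71.6, 67.1 and 69.6 to 18.4 and 13.2 CPM (log2 fold change -2.13, SE 0.37). The groups did not overlap for either gene, which the rule that named them required.

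Nitrogen genes fell in 8 of 9 cases for uptake and 6 of 8 for assimilation, and none rose. The high-affinity nitrate carrier OsNRT2.1 (OS02G0112100) went from 197, 150 and 193 to 0.353 and 1.15 CPM (log2 fold change -7.99, SE 1.29, adjusted p = 0.00026). Its near copy OsNRT2.2 (OS02G0112600), with which it may have exchanged reads, and the partner protein OsNAR2.1 (OS02G0595900) had log2 fold changes of -4.49 and -4.57. The ammonium carrier OsAMT1;2 (OS02G0620500) went from 21.7, 17.1 and 19.1 to 0 and 0.406 CPM (log2 fold change -6.74, SE 1.11, adjusted p = 0.000311), and was at 0 in 1 excess-iron library. The nitrate transceptor NRT1.1B (OS10G0554200) stood at a log2 change of 0.62 (SE 0.34) and was not called. In assimilation, the cytosolic glutamine synthetase OsGS1;2 (OS03G0223400) fell from 1179, 1224 and 1493 to 107 and 135 CPM (log2 fold change -3.43, SE 0.45), its plastid relative OsGS2 (OS04G0659100) from 51.5, 57.6 and 81 to 9.37 and 7.5 CPM (log2 fold change -2.90, SE 0.36) and the nitrate reductase OsNIA1 (OS08G0468100) by 2.87.

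Phosphate genes were mixed, with 3 risers and 4 fallers among 12. The phosphate-sensing protein gene OsSPX2 (OS02G0202200) rose from 8.26, 6.42 and 5.65 to 76.7 and 109 CPM (log2 fold change 3.77, SE 0.18) and the root-associated acid phosphatase OsPAP10a (OS01G0776600) from 26.5, 20.8 and 19.6 to 39.7 and 39.9 CPM (log2 fold change 0.84, SE 0.17). The xylem loader OsPHO1;2 (OS02G0809800) fell from 599, 540 and 526 to 194 and 182 CPM (log2 fold change -1.56, SE 0.15) and the transporter OsPT2 (OS03G0150800) from 30.4, 17.6 and 15.1 to 3.63 and 6.02 CPM (log2 fold change -2.14, SE 0.35). Each of these 4 separated the groups without overlap, which the rule that named them required. OsPT6 (OS08G0564000) went from 3.32, 3.21 and 3.35 CPM in control to 0 reads and was at least 38-fold lower with a floor of 3 counts over the excess-iron group.

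Among 7 potassium and sodium transporters 2 rose and 3 fell. The carriers OsHAK5 (OS01G0930400) and OsHKT2;1 (OS06G0701700) rose, from 2.47, 3.21 and 3.56 to 49.5 and 46.2 CPM (log2 fold change 3.96, SE 0.22) and from 6.38, 8.38 and 9.34 to 72.1 and 65.4 CPM (log2 fold change 3.10, SE 0.21), while the abundant carrier OsHAK1 (OS04G0401700) was not called (-0.14, SE 0.13), except as a fall with scaling by library totals (-0.40) or with limma (-0.50). The potassium channel OsAKT1 (OS01G0648000) fell from 144, 205 and 187 to 57.1 and 60.8 CPM (log2 fold change -1.60, SE 0.18) and the vacuolar exchanger OsNHX1 (OS07G0666900) from 19.4, 18.6 and 21.6 to 3.22 and 4.19 CPM (log2 fold change -2.43, SE 0.31), and the xylem sodium retriever OsHKT1;5 (OS01G0307500) fell by 4.04. Water channels fell more often than they rose: 7 of 13 tested aquaporins fell and 1 rose. The vacuolar channel OsTIP2;1 (OS02G0658100) fell from 478, 423 and 418 to 30.9 and 33.2 CPM (log2 fold change -3.78, SE 0.55) and the plasma membrane channel OsPIP2;6 (OS04G0233400) from 18.9, 25.6 and 20.6 to 3.32 and 2.1 CPM (log2 fold change -2.98, SE 0.52), with OsPIP2;3 (OS04G0521100) and OsPIP2;2 (OS02G0629200) lower by 2.40 and 2.29. The riser, OsPIP2;4 (OS07G0448100), went from 102, 94.1 and 94.3 to 164 and 152 CPM (log2 fold change 0.71, SE 0.17) and shares sequence with OsPIP2;5.

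Genes of the cell cycle and of cellulose synthesis fell without exception. All 17 tested genes of DNA replication and the cell cycle fell, with a median log2 fold change of -4.27, against 32.7% of all genes falling. In whole roots, fewer dividing cells and less RNA per dividing cell cannot be told apart. The mitotic cyclin CYCB2;2 (OS06G0726800) stood at 38.3, 37.6 and 43.9 CPM in control and 0.302 and 0.676 CPM under excess iron (log2 fold change -6.40, SE 0.40, adjusted p = 4.56e-07). KNOLLE (OS03G0736500), a syntaxin that builds the cell plate, went from 34.7, 35.5 and 38.2 to 0.504 and 0.541 CPM (log2 fold change -6.11, SE 0.35, adjusted p = 2.84e-07). Both were almost absent from the excess-iron libraries. The 6 subunits of the MCM replication helicase all fell, between OsMCM6 (OS05G0235800), which fell by 5.45, and OsMCM5 (OS02G0797400), which fell by 4.12. The mitosis-specific kinase CDKB2;1 (OS08G0512600) fell by 4.55, while CDKA;1 (OS03G0118400), the kinase that is not limited to dividing cells, fell by 0.58 (SE 0.11) and the sliding clamp OsPCNA (OS02G0805200) by 1.79.

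Every one of the 9 tested cellulose synthase and related genes fell as well. Those of the secondary wall fell by 4.64 to 6.17 and those of the primary wall by 2.69 to 3.96, ranges that do not overlap. OsCESA7 (OS10G0467800), a secondary wall subunit, went from 111, 102 and 111 CPM in control to 0 and 3.31 CPM (log2 fold change -6.17, SE 0.72, adjusted p = 2.32e-05), with 1 excess-iron library at 0. The other subunits of that wall fell too, OsCESA9 (OS09G0422500) from 77.4, 74 and 84.8 to 0.755 and 1.89 CPM (log2 fold change -5.95, SE 0.34) and OsCESA4 (OS01G0750300) by 4.64. OsCESA1 (OS05G0176100), a primary wall subunit, went from 650, 728 and 901 to 70.4 and 67 CPM (log2 fold change -3.47, SE 0.16, adjusted p = 1.24e-07). OsCSLF6 (OS08G0160500), which makes mixed-linkage glucan, fell by 3.87.

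Root pattern and auxin transport genes fell in 8 of 9 cases. The auxin carrier OsPIN2 (OS06G0660200) of the root tip went from 34.1, 31.3 and 30.2 to 0.655 and 1.22 CPM (log2 fold change -5.13, SE 0.42, adjusted p = 2.15e-06). The crown root factor CRL1 (OS03G0149100) and the patterning factors OsSHR1 (OS07G0586900) and OsSCR1 (OS11G0124300) fell by 4.45, 2.62 and 2.72, OsSHR1 from 24.7, 27.4 and 24.6 to 4.33 and 3.92 CPM (log2 fold change -2.62, SE 0.14). Reads of OsSCR1 may have been shared with a near copy. QHB (OS01G0854500), a homeobox gene of the quiescent centre, had 1.29, 1.32 and 2 CPM in control and no reads under excess iron, at least 17.5-fold lower with a floor of 3 counts over the group. The marker RCc3 (OS02G0662000) itself went from 311, 400 and 499 to 0.201 and 1.35 CPM (log2 fold change -9.14, SE 0.74). The exception was OsWOX11 (OS07G0684900), a homeobox gene of crown root emergence, which rose from 4.83, 1.36 and 1.09 to 16.1 and 17.3 CPM (log2 fold change 2.76, SE 0.47).

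Hormone and barrier genes of root development moved less. Among type-A cytokinin response regulators, which cytokinin induces, 3 of 7 fell and 1 rose. OsRR6 (OS04G0673300) rose from 14.6, 12.7 and 12.3 to 38.9 and 62.2 CPM (log2 fold change 1.93, SE 0.23), while OsRR4 (OS01G0952500) fell from 23.4, 27.7 and 25.8 to 7.6 and 7.3 CPM (log2 fold change -1.78, SE 0.25) and OsRR10 (OS12G0139400) from 17.5, 19.3 and 19.3 to 11.3 and 10 CPM (log2 fold change -0.81, SE 0.17). The ABC transporter RCN1 (OS03G0281900), needed for the suberin barrier of the root, rose from 35.3, 38.2 and 25.7 to 49 and 61.2 CPM (log2 fold change 0.73, SE 0.19), but was not called without excess-iron library 2 or with scaling by library totals (0.47). Of 3 tested strigolactone genes, D17 (OS04G0550600) rose from 3.58, 3.66 and 3.22 to 13.2 and 11.6 CPM (log2 fold change 1.83, SE 0.15) and D27 (OS11G0587000) fell by 1.03.

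**Figure D3:**
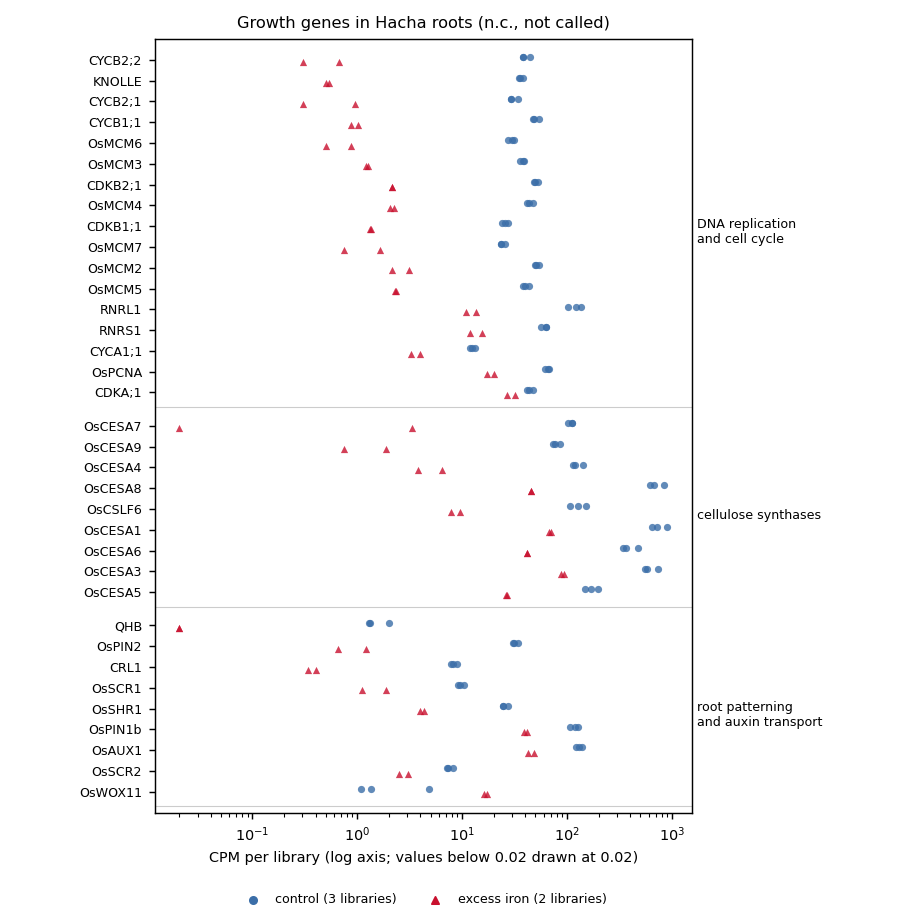
CPM per library (horizontal log axis) of the tested genes of the cell cycle, cellulose synthesis and root pattern in Hacha roots, with 3 control libraries as blue circles and 2 excess-iron libraries as red triangles. Excess iron shifts every gene of the upper pair of lists to the left, and OsWOX11 is the gene of the lowest list that shifts to the right.

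Genes of sugar metabolism and transport moved in both directions. Of 13 tested genes 6 rose and 4 fell, with a median of 0.42. With scaling by library totals 4 rose and 6 fell, with a median of 0.16. Sucrose synthase OsSUS1 (OS03G0401300), which feeds sugar to wall synthesis and glycolysis, had the largest fall in CPM of all genes, from 4040, 5062 and 5973 CPM to 210 and 238 CPM (log2 fold change -4.49, SE 0.24, adjusted p = 2.12e-07). The cell wall invertase OsCIN2 (OS04G0413500) went from 44.5, 49.6 and 56 CPM to 3 reads in all, which gives a ratio of control to excess iron of 574 (95% interval from counting error 196 to 2785). In contrast the vacuolar invertase OsVIN2 (OS04G0535600) rose from 111, 67.4 and 58.6 to 1135 and 1685 CPM (log2 fold change 4.16, SE 0.27, adjusted p = 5.13e-07), and the sucrose carrier OsSUT1 (OS03G0170900) from 12, 13.2 and 8.47 to 209 and 189 CPM (log2 fold change 4.15, SE 0.28). The cell wall invertase OsCIN1 (OS02G0534400) and the efflux carrier OsSWEET14 (OS11G0508600) rose by 1.28 and 1.26. The call of OsSWEET14 was lost without excess-iron library 1 or control library 2, and with scaling by library totals (1.00).

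Genes of enzymes that remove reactive oxygen moved in both directions, and those of the oxidases that make it fell. Of 10 catalases, dismutases and ascorbate peroxidases 4 rose and 2 fell, against 29.6% and 32.7% of all genes. The list median of 0.32 was 0.06 with scaling by library totals, when 4 rose and 3 fell. The catalase CatA (OS02G0115700) went from 159, 124 and 114 to 1232 and 966 CPM (log2 fold change 3.05, SE 0.20, adjusted p = 6.43e-07). In control roots it held 98.7 TPM against 791 TPM of CatB (OS06G0727200), which was not called (0.32, SE 0.15). CatB was called as a rise with only the 5 Hacha root libraries in the fit (0.32) or with DESeq2 (0.34). The dismutase Fe-SOD (OS06G0143000) rose from 11.9, 10.7 and 9 to 33.4 and 30.8 CPM (log2 fold change 1.61, SE 0.18), and cCuZn-SOD2 (OS07G0665200) and the peroxidase OsAPX1 (OS03G0285700) by 1.04 and 1.02. The plastid dismutase pCuZn-SOD (OS08G0561700) fell from 65.6, 72.8 and 68.7 to 41.4 and 34.3 CPM (log2 fold change -0.86, SE 0.12) and the mitochondrial Mn-SOD (OS05G0323900) from 123, 127 and 134 to 95.1 and 88 CPM (log2 fold change -0.49, SE 0.17), the latter a call that was lost without any one of the 5 libraries.

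All 6 tested respiratory burst oxidases, the plasma membrane enzymes that make superoxide, fell, with a median of -3.15. OsRbohB (OS01G0360200) went from 134, 137 and 161 to 0.957 and 1.08 CPM (log2 fold change -7.14, SE 0.32, adjusted p = 1.05e-07). OsRbohH (OS12G0541300) fell from 10.5, 7.21 and 15.4 to 0.101 and 1.01 CPM (log2 fold change -4.44, SE 0.99), and the smallest fall was 1.85 in OsRbohG (OS09G0438000). Alternative oxidase, which lets mitochondrial electrons bypass the cytochrome chain, rose in 2 of 3 genes, OsAOX1b (OS04G0600300) from 3.1, 2.64 and 1.96 to 66.1 and 96.3 CPM (log2 fold change 4.97, SE 0.51) and OsAOX1a (OS04G0600200) from 38.8, 32.2 and 28.6 to 98.7 and 161 CPM (log2 fold change 1.96, SE 0.38). Of 11 tau glutathione transferases of the chromosome 10 cluster, which detoxify with glutathione, 4 rose and 2 fell. OsGSTU4 (OS10G0528300) rose from 30.7, 29 and 11.7 to 99.5 and 201 CPM (log2 fold change 2.65, SE 0.52) and OS10G0528100 from 7.63, 4.72 and 3.95 to 20.6 and 22.6 CPM (log2 fold change 1.99, SE 0.27), while OS10G0529300 fell from 12.6, 12 and 10.9 to 0.705 and 1.35 CPM (log2 fold change -3.56, SE 0.45). These clustered genes resemble each other and their reads may have been shared out in error.

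Genes of low oxygen rose in 7 of 13 cases and fell in 2. The ethylene response factor Sub1B (OS09G0287000) rose from 28.4, 15.2 and 16.5 to 124 and 147 CPM (log2 fold change 2.75, SE 0.30) and its neighbour Sub1C (OS09G0286600) by 1.95. The amylase RAmy3D (OS08G0473900), known to be induced by sugar starvation, rose from 4.5, 2.42 and 2.69 to 18 and 46.4 CPM (log2 fold change 3.32, SE 0.41). The main fermentation enzymes did not rise. Pyruvate decarboxylase OsPDC2 (OS03G0293500) fell from 201, 237 and 318 to 75.3 and 72.3 CPM (log2 fold change -1.77, SE 0.27), and alcohol dehydrogenase OsADH2 (OS11G0210500), at 287 TPM in control, was not called (-0.30, SE 0.22). OsADH1 (OS11G0210300), at 10 TPM, rose by 1.01. Its call was lost without either excess-iron library, without control library 1 or 2 and with scaling by library totals (0.75). The haemoglobin OsHb2 (OS03G0226200) fell from 197, 262 and 451 to 81.2 and 97.9 CPM (log2 fold change -1.76, SE 0.48), but not without excess-iron library 1.

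Among 13 cytosolic and organellar heat shock genes 7 rose and 2 fell. A class I small heat shock protein, OS03G0266300, rose from 18.8, 13.8 and 7.3 to 114 and 173 CPM (log2 fold change 3.43, SE 0.34) and an HSP70 chaperone, OS05G0460000, from 7.96, 2.57 and 2.09 to 20.5 and 33.5 CPM (log2 fold change 2.67, SE 0.56). Another HSP70, OS11G0703900, fell from 1043, 1234 and 1177 to 835 and 707 CPM (log2 fold change -0.58, SE 0.14) and the HSP90 gene OS09G0482600 from 319, 368 and 341 to 247 and 217 CPM (log2 fold change -0.56, SE 0.12). The disaggregase OsHSP101 (OS05G0519700) stood at a log2 change of 0.01 (SE 0.26). In the endoplasmic reticulum 4 of 5 tested genes fell, including the chaperones OsBiP1 (OS02G0115900) from 496, 571 and 603 to 240 and 224 CPM (log2 fold change -1.26, SE 0.15) and OsCNX (OS04G0402100) from 527, 606 and 633 to 334 and 298 CPM (log2 fold change -0.90, SE 0.13). OsbZIP50 (OS06G0622700), the factor activated by stress in that compartment, rose from 53.1, 58.4 and 49.8 to 157 and 201 CPM (log2 fold change 1.74, SE 0.15).

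Stress transcription factors rose as the most uniform group on the upper side. Of 14 tested NAC and DREB factors 12 rose and none fell, with a median of 2.65, and of 14 WRKY factors 13 rose and none fell, with a median of 1.93, against 29.6% of all genes rising. Without control library 1 the counts were 11 and 13. OsNAC4 (OS01G0816100), an inducer of cell death in rice, went from 15.7, 3.36 and 2.39 to 195 and 286 CPM (log2 fold change 5.06, SE 0.62, adjusted p = 3.45e-05). Without control library 1, its highest control, the log2 fold change was 6.40. The senescence factor OsNAP (OS03G0327800) rose from 14.3, 7.63 and 8.13 to 111 and 121 CPM (log2 fold change 3.52, SE 0.31). The stress factors OsNAC6 (OS01G0884300) and SNAC1 (OS03G0815100) rose by 3.49 and 2.95, and OsDREB2B (OS05G0346200) by 2.35. Among WRKY factors, OsWRKY28 (OS06G0649000) rose from 10.5, 5.06 and 6.21 to 60.4 and 69.3 CPM (log2 fold change 3.15, SE 0.30) and OsWRKY62 (OS09G0417800) from 60.1, 26.3 and 18.4 to 203 and 414 CPM (log2 fold change 3.14, SE 0.43). The defence regulator OsWRKY45 (OS05G0322900) rose by 0.44, a call lost without excess-iron library 1 or with scaling by library totals (0.19), and OsWRKY76 (OS09G0417600) was not called (-0.21, SE 0.31).

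Defence proteins and phytoalexin genes rose in part. Of 10 pathogenesis-related genes 7 rose and 1 fell, and the counts without control library 1 were 7 and 1. The chitinase Cht3 (OS06G0726100) rose from 1.4, 1.06 and 1.35 to 19.7 and 18.5 CPM (log2 fold change 3.91, SE 0.27) and OsPR1b (OS01G0382000) from 3.69, 1.4 and 1.48 to 27.6 and 29.2 CPM (log2 fold change 3.69, SE 0.35), and a further chitinase, Cht2 (OS05G0399300), from 122, 60.6 and 59.8 to 558 and 835 CPM. PBZ1 (OS12G0555500), a ribonuclease-like PR10 protein, fell from 434, 456 and 754 to 184 and 177 CPM (log2 fold change -1.60, SE 0.28).

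Of 15 genes of diterpenoid phytoalexins, antimicrobial compounds that rice roots also exude, 9 rose and 2 fell. The cyclase OsKSL10 (OS12G0491800) rose from 0.995, 0.566 and 1.52 to 17.2 and 10.9 CPM (log2 fold change 3.79, SE 0.52) and OsKSL7 (OS02G0570400), of the phytocassane cluster, from 32.3, 22.4 and 25.6 to 181 and 134 CPM (log2 fold change 2.55, SE 0.46). The cyclase OsKSL8 (OS11G0474800) fell from 64.8, 58.9 and 66.9 to 16.9 and 11.2 CPM (log2 fold change -2.17, SE 0.39) and the regulator DPF (OS01G0196300) from 32.8, 29.6 and 35.2 to 18.7 and 16.1 CPM (log2 fold change -0.90, SE 0.13). In the tryptophan branch 3 of 4 tested genes rose. Tryptophan decarboxylase OsTDC1 (OS08G0140300) rose from 24, 22.2 and 15.3 to 109 and 121 CPM (log2 fold change 2.49, SE 0.19), the anthranilate synthase subunit OASA2 (OS03G0826500) from 9.73, 10.8 and 8.87 to 23.5 and 44.4 CPM (log2 fold change 1.78, SE 0.22) and the serotonin enzyme T5H (OS12G0268000) by 1.60.

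Lignin and flavonoid genes fell more often than they rose. Of 12 tested genes of monolignol synthesis 7 fell and 2 rose. The dehydrogenase OsCAD2 (OS02G0187800) fell from 462, 394 and 465 to 144 and 161 CPM (log2 fold change -1.53, SE 0.19) and the methyltransferase OsCOMT1 (OS08G0157500) from 1481, 1440 and 1541 to 528 and 553 CPM (log2 fold change -1.46, SE 0.13). The ligase Os4CL5 (OS08G0448000) rose from 95.3, 67.5 and 74.8 to 135 and 122 CPM (log2 fold change 0.69, SE 0.14) and the hydroxylase OsCAld5H1 (OS10G0512400) from 46.3, 31.6 and 29 to 58.4 and 54.5 CPM (log2 fold change 0.66, SE 0.23), the latter a call that was lost without any one of 4 of the 5 libraries and with scaling by library totals (0.40).

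The entry enzyme phenylalanine ammonia-lyase was called in 3 of 6 genes. The most abundant one, OS02G0626100 at 2157 TPM in control, was not called (-0.24, SE 0.21). The called ones were OS04G0518400, which rose from 14.4, 21.1 and 14.7 to 67.4 and 48.7 CPM (log2 fold change 1.79, SE 0.21), OS02G0627100, which rose by 0.40 but not without excess-iron library 1, control library 2 or control library 3, and OS04G0518100, which fell from 161, 160 and 185 to 43.4 and 44.1 CPM (log2 fold change -1.95, SE 0.14). With scaling by library totals the call of OS02G0627100 was lost (0.14), and the median of these lyases, 0.06, turned to -0.20. In flavonoid synthesis 5 of 8 tested genes fell and 3 rose. Chalcone isomerase OsCHI (OS03G0819600) fell from 222, 193 and 234 to 21.9 and 28.5 CPM (log2 fold change -3.11, SE 0.33) and the flavonoid hydroxylase OsF3'H (OS10G0320100) from 15.3, 18 and 22.9 to 1.66 and 2.37 CPM (log2 fold change -3.23, SE 0.29). The risers were scarce, and OsNOMT (OS12G0240900), the last enzyme of sakuranetin synthesis, stood at 2.42 and 1.76 CPM under excess iron.

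**Figure D4:**
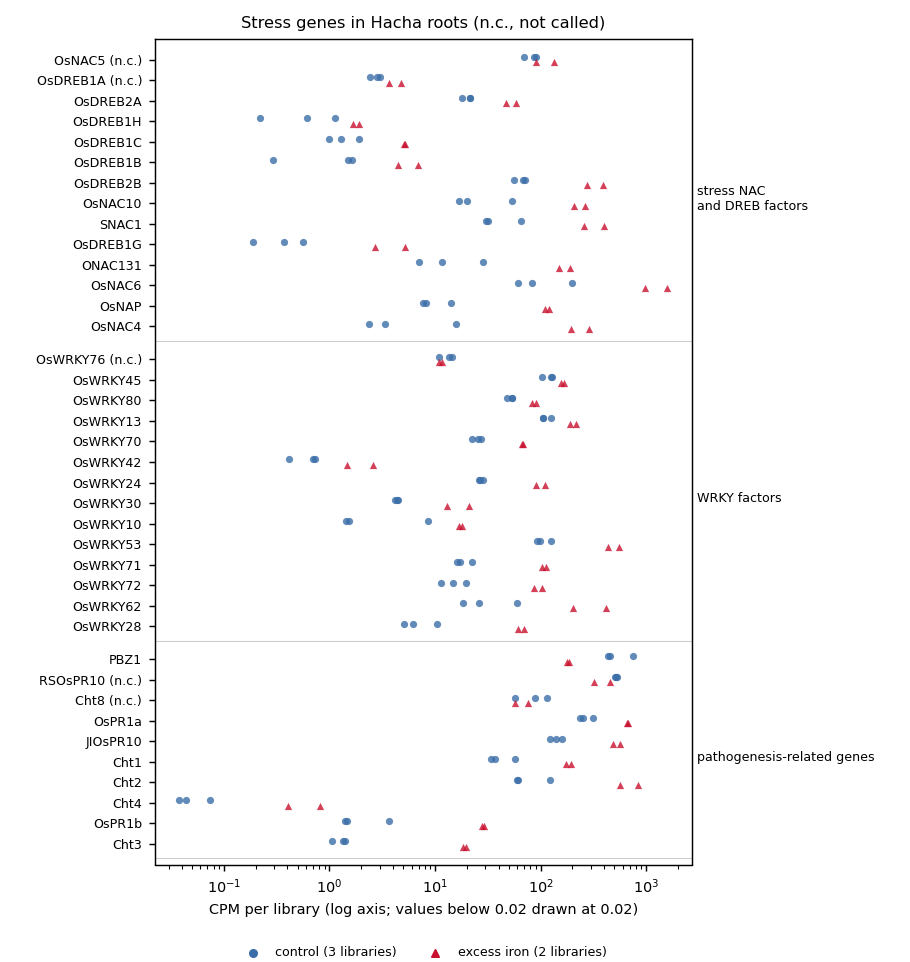
CPM per library (horizontal log axis) of the tested NAC, DREB, WRKY and pathogenesis-related genes in Hacha roots, with 3 control libraries as blue circles and 2 excess-iron libraries as red triangles. Most genes shift to the right under excess iron, OsNAC4 from 15.7, 3.36 and 2.39 to 195 and 286 CPM, and PBZ1 shifts to the left.

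Of 6 tested genes of abscisic acid synthesis and breakdown 4 rose and 2 fell, and the counts without control library 1 were 4 and 1. All 3 tested 9-cis-epoxycarotenoid dioxygenases, the rate-limiting step, rose. OsNCED4 (OS07G0154100) went from 3.1, 0.378 and 0.217 to 21.1 and 72.3 CPM (log2 fold change 5.20, SE 0.82, adjusted p = 0.000226) and OsNCED5 (OS12G0617400) from 5.12, 1.96 and 0.913 to 45.3 and 88.2 CPM (log2 fold change 4.62, SE 0.51). Both were highest among controls in library 1, and without it the log2 fold changes were 7.27 and 5.54. The catabolic hydroxylase OsABA8ox2 (OS08G0472800) fell from 17.9, 8.23 and 6.69 to 3.83 and 5.34 CPM (log2 fold change -1.27, SE 0.42) and OsABA8ox1 (OS02G0703600) from 29.1, 35.4 and 30.5 to 22 and 20.7 CPM (log2 fold change -0.57, SE 0.18), calls that were both lost without either excess-iron library. The first was also lost without control library 1 (-0.68, adjusted p = 0.08), the second without control library 2.

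Of 13 genes of the abscisic acid response, 5 rose and 1 fell, against 8 and 0 without control library 1, when the median moved from 0.33 to 2.44. The phosphatase OsPP2C30 (OS03G0268600) rose from 4.16, 1.02 and 0.608 to 30.5 and 46.8 CPM (log2 fold change 4.29, SE 0.55) and its relative OsPP2C68 (OS09G0325700) from 5.75, 2.3 and 1.43 to 12.3 and 18.3 CPM (log2 fold change 2.26, SE 0.52). The dehydrin RAB16A (OS11G0454300), a marker of water deficit, stood at 88.4, 5.02 and 0.826 CPM in control and 9.67 and 42 CPM under excess iron, so that control library 1 lay above both excess-iron libraries. With all libraries its log2 fold change was -0.30 (SE 1.32, adjusted p = 0.862), and without control library 1 it was 3.13 (adjusted p = 0.0188). The other RAB16 genes were not called with all libraries either.

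In jasmonate synthesis, 3 of 5 tested genes rose and 2 fell, with allene oxide synthase OsAOS2 (OS03G0225900) rising from 111, 53.2 and 43.6 to 385 and 365 CPM (log2 fold change 2.43, SE 0.39). Of 13 JAZ repressors, which jasmonate signalling degrades and whose genes it induces, 8 rose and 2 fell. OsJAZ5 (OS04G0395800) rose from 6.23, 1.28 and 0.826 to 57.2 and 85.3 CPM (log2 fold change 4.65, SE 0.61) and OsJAZ12 (OS10G0392400) from 27.3, 7.4 and 8.52 to 158 and 202 CPM (log2 fold change 3.63, SE 0.50). OsJAZ1 (OS04G0653000) fell from 288, 242 and 275 to 106 and 104 CPM (log2 fold change -1.35, SE 0.12) and OsJAZ8 (OS09G0439200) from 52.7, 36.9 and 38 to 17.9 and 20.6 CPM (log2 fold change -1.15, SE 0.20). Over the jasmonate list, 11 genes rose with all libraries and 12 without control library 1.

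Of 10 ethylene synthesis genes 3 rose and 4 fell, shares near those of all genes. Both of its last steps were mixed. Of 4 ACC synthases, OsACS2 (OS04G0578000) rose from 10.6, 8.53 and 9.65 to 83.9 and 141 CPM (log2 fold change 3.55, SE 0.20) and OsACS6 (OS06G0130400) from 15.2, 16.2 and 13.6 to 44.3 and 52.2 CPM (log2 fold change 1.68, SE 0.12), while OsACS5 (OS01G0192900) fell from 7.08, 8.04 and 7.47 to 0.504 and 0.608 CPM (log2 fold change -3.76, SE 0.40). Of 6 ACC oxidases, OsACO1 (OS09G0451000) fell from 12.1, 13.6 and 17.5 to 0.604 and 0 CPM and OsACO4 (OS11G0186900) from 113, 123 and 76.6 to 9.67 and 12.7 CPM (log2 fold change -3.23, SE 0.46), while OsACO3 (OS02G0771600) rose by 0.70, a call lost with scaling by library totals (0.44). OsACO2 (OS09G0451400) went from 0.184, 0.604 and 0.521 CPM in control to 0 reads and was at least 4.97-fold lower by the same floor, a call lost without either excess-iron library. Among 8 clock genes 3 rose and 1 fell. The pseudo-response regulators OsPRR95 (OS09G0532400) and OsPRR59 (OS11G0157600) rose from 45.8, 37.5 and 31.1 to 84 and 129 CPM (log2 fold change 1.48, SE 0.19) and from 69.1, 62.4 and 60.6 to 118 and 154 CPM (log2 fold change 1.09, SE 0.13), and OsPRR37 (OS07G0695100) fell from 42.8, 36.2 and 31 to 15.8 and 16.8 CPM (log2 fold change -1.17, SE 0.17). The morning gene OsLHY (OS08G0157600) and the evening gene OsGI (OS01G0182600) had log2 fold changes of 0.05 (SE 0.19) and 0.13 (SE 0.15) and were not called.

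Outside the lists, the largest gains in CPM were in OS05G0247100, from 1474, 689 and 529 to 14532 and 18212 CPM, and in OS01G0348900, from 1631, 314 and 183 to 7928 and 9518 CPM. Control library 1 was the highest control for both. OS01G0910900 and OS04G0650700 followed, with log2 fold changes of 5.98 and 4.46. On the log2 scale the steepest rise was in OS04G0538300, from no reads to 43.1 and 43.9 CPM, at least 1110-fold higher with a floor of 3 counts over the control group. OS01G0893700 had 2 reads in control and 32.4 and 50 CPM under excess iron, which gives a ratio of excess iron to control of 1529 (95% interval 423 to 12642), and OS05G0143000 rose from 0.147, 0.227 and 0.0869 to 83.2 and 114 CPM (log2 fold change 9.26, SE 0.31). OS11G0484450, OS05G0215066 and OS02G0218750 had no reads under excess iron and were at least 713-fold, 499-fold and 349-fold lower. No role is given for these genes, which no source used here annotates.

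The response of Hacha was set against that of Lachit roots, whose libraries are separate, by a test of the difference in the same fit. This test called 19.4% of all genes. A higher log2 fold change in Lachit was called for 12.4% and a lower one for 6.98%, 3415 and 1917 genes. With scaling by library totals these were 4844 and 1274 genes, and the median difference over all genes was 0.25 instead of 0.09. Leaving out 1 Hacha excess-iron library lowered the number of differing genes from 5332 to 3434 without library 1 and 2801 without library 2.

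Growth genes fell less in Lachit. Of 17 cell cycle genes, 13 differed, all with the smaller fall in Lachit, and the list medians were -4.27 in Hacha and -2.93 in Lachit. Leaving out single libraries left 8 to 15 of them, the lowest without Hacha control library 3. CYCB2;2 stood at 3.87, 3.42 and 1.96 CPM in Lachit under excess iron, from 36.3, 44.3 and 57.8 CPM in its controls. The cellulose synthase list had 8 of 9 such genes, with medians of -3.87 and -1.92. OsCESA7 went from 81.4, 104 and 129 to 27.9, 24.4 and 20.2 CPM in Lachit, a log2 fold change of -2.12, so that the difference was 4.05 (SE 0.81, adjusted p = 0.00688). Of 6 respiratory burst oxidases 5 differed in the same direction. All 3 ammonium transporters differed with all libraries in the fit. They were among 4 of 9 nitrogen uptake genes that did, and without single libraries 1 to 5 did, the fewest without Hacha excess-iron library 1. OsAMT1;2 went from 33.8, 16.4 and 20.5 to 8.15, 9.58 and 39.2 CPM in Lachit, where none of the ammonium transporters was called (difference 6.41, SE 1.28, adjusted p = 0.00681).

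Several iron genes fell further in Lachit. Of 8 phytosiderophore genes 4 had a lower log2 fold change in Lachit and none a higher one, and without single libraries 1 to 5 had. The single gene was left when either Hacha excess-iron library was left out. Among the 4, TOM2 rose in Hacha, so its difference of -2.18 is not a further fall. The medians of the phytosiderophore list were -4.08 in Hacha and -5.08 in Lachit. Among uptake and transport genes the counts were 5 lower and 1 higher of 12, and 4 to 5 lower without single libraries. As a list these did not fall further in Lachit, with medians of -3.51 in Hacha and -3.18 in Lachit. Of the 12 genes, 10 fell in Hacha and 8 in Lachit. OsYSL15 went from 1096, 1825 and 1301 to 5.46, 9.9 and 4.2 CPM in Lachit (difference -2.80, SE 0.46, adjusted p = 0.00289). For the ferritins OsFER1 and OsFER2 the differences were -0.27 (SE 0.35) and -0.61 (SE 0.35) and were not called. OsFRO2, which was scarce, went from 0.0342, 0.164 and 0.236 CPM to no reads in Lachit, opposite to its rise in Hacha (adjusted p of the difference = 0.00942). Tau glutathione transferases rose in 8 of 11 cases in Lachit against 4 in Hacha. By the test of the difference 6 had a higher log2 fold change in Lachit, and 3 to 8 without single libraries. The fewest were left without Hacha excess-iron library 1 or Lachit control library 1.

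**Figure D5:**
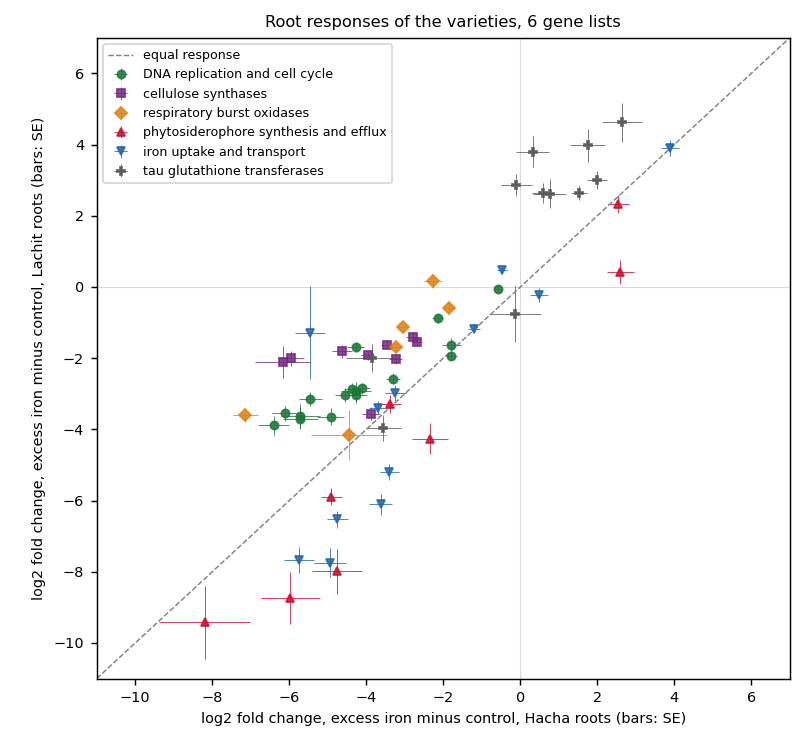
Log2 fold changes (excess iron minus control) of 6 gene lists in Hacha roots (horizontal axis) and Lachit roots (vertical axis), with standard errors as bars and equal responses on the dashed line. Cell cycle genes, cellulose synthases and respiratory burst oxidases lie mostly above the line, and most falling genes of iron uptake and phytosiderophores below it.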

How the data were processed

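RNA sequencing libraries of whole roots were compared in 4 groups, Hacha and Lachit with and without excess iron, 11 libraries in all. Per the submitters' processing notes, the authors used bcl2fastq, kallisto and the genome build IRGSP-1.0. Their versions and settings are not stated there. Per the file headers, the deposited estimated counts and TPM are given for each of 42346 transcripts, with replicates not pooled. A deposited TPM table of the whole series holds the same quantity and was not used. Estimated counts were summed to 35679 genes and rounded to whole numbers, and TPM values were summed. The library kit does not mark strand per the labels' protocols, so antisense reads cannot be told apart. Kallisto shares out reads of near-identical genes, which leaves the split between copies uncertain. Totals ran from 16659578 to 33386824 counts over all libraries of the series. No pair of root libraries within a group was a duplicate.

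Genes were filtered with filterByExpr and tested with the quasi-likelihood F test of edgeR 4.0.16 (robust, TMM scaling) in 1 fit over the root groups. Standard errors were derived from the F statistic, and p-values were adjusted by Benjamini-Hochberg over all 27479 tested genes. The biological coefficient of variation was 17.7%. Alternatives were size factors as in DESeq2, library totals, no filter, a minimum log2 fold change of 1, other sample sets, DESeq2 1.42.0, leaving out single libraries, and limma 3.58.1 with log2(TPM + 1) values. The fit was also tested on simulated counts, with far fewer changed genes than were called here and equally many up and down. That simulation does not test the scaling under so broad a response. Intervals and floors of 3 counts cover counting error only.

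The members and gene lists were chosen with earlier results of these data known. In each list, the up to 2 called risers and 2 called fallers with the largest change were named, provided that the higher group averaged 10 CPM or more and the groups' libraries did not overlap. 1 gene named by this rule is not reported here. Other members were named beside them, chosen after their values were seen. Gene names were written from background knowledge of published RAP assignments and were not checked. A RefSeq gene table matched only 1 identifier and was not used.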

Additional observations from a re-analysis of the deposited data

Results flagged for a closer look

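The log2 fold change under excess iron differed between Lachit and Hacha roots by the test of the difference, at an adjusted p below 0.05, for 84 of the named genes. Differences are given as Lachit minus Hacha on the log2 scale, so that a positive value means a higher log2 fold change in Lachit. Among all tested genes 19.4% differed, and no explanation was tested.

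Among iron uptake and transport, phytosiderophore, methionine cycle, regulator and reductase genes, the difference was 0.95 for PEZ2. It was negative in the same set, with -1.92 for OsIRT1, -1.78 for OsNRAMP1, -2.80 for OsYSL15, -1.80 for OsYSL2, -2.49 for OsOPT7, -2.77 for OsNAS1, -1.91 for OsNAAT1, -3.22 for TOM1, -2.18 for TOM2, -1.53 for OsARD, -1.90 for OsIRO2 and -7.23 for OsFRO2.

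Among genes of zinc transport, metallothioneins and acid-soil tolerance, the difference was 1.11 for OsZIP1, 2.94 for OsMT2b, 2.86 for OsMT2a, 2.63 for Nrat1 and 1.47 for OsCDT3. Negative differences there were -4.02 for OsZIP9, -2.51 for OsZIP5 and -3.46 for OsMT3a.

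Among genes of other nutrients and of water channels, the difference was 5.77 for OsNRT2.1, 6.41 for OsAMT1;2, 2.41 for OsGS1;2 and 0.73 for OsHAK1. In the other direction stood -0.63 for Lsi1, -1.69 for OsSULTR1;1, -2.23 for OsSPX2, -2.51 for OsAKT1 and -0.85 for OsPIP2;4.

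Among root marker and reference genes, the difference was 2.88 for RCc3 and 1.01 for GAPDH. For cell division it was 2.52 for CYCB2;2, 2.56 for KNOLLE, 2.31 for OsMCM6, 1.27 for OsMCM5, 1.52 for CDKB2;1 and 0.51 for CDKA;1. For cellulose synthases it was 4.05 for OsCESA7, 3.95 for OsCESA9, 2.83 for OsCESA4 and 1.85 for OsCESA1. For root pattern it was 2.29 for CRL1, 1.51 for OsSHR1, 1.09 for OsSCR1 and 5.42 for QHB. For hormone and barrier genes of root development it was 0.77 for OsRR10 and 1.51 for RCN1. The single negative one in these sets was -0.90 for the strigolactone gene D17.

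Among genes of sugars, reactive oxygen and low oxygen, the difference was 1.94 for OsSUS1, 3.89 for OsCIN2, 0.76 for OsCIN1, 0.82 for pCuZn-SOD, 3.55 for OsRbohB and 1.26 for OsRbohG. It was negative in the same set, with -1.42 for OsVIN2, -2.39 for OsSUT1, -1.09 for Fe-SOD, -2.49 for OsAOX1b, -1.57 for Sub1B and -1.29 for Sub1C.

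Among genes of defence and phenylpropanoids, the difference was 1.81 for OsWRKY45, 1.83 for PBZ1, 2.48 for OsKSL8, 1.28 for DPF, 1.39 for OsTDC1, 0.88 for OsCAD2, 0.79 for OsCOMT1, 0.62 for Os4CL5, 1.33 for OS02G0627100 and 1.75 for OS04G0518100. Negative differences there were -1.77 for Cht3, -2.30 for OsKSL10 and -1.49 for OASA2.

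Among genes of hormones, the difference was 2.33 for OsABA8ox2, 0.68 for OsJAZ1, 5.30 for OsACO1 and 2.27 for OsACO4. In the other direction stood -1.68 for OsACS2 and -1.19 for OsACS6.

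Outside the lists, the difference was -2.88 for OS01G0910900. OS05G0215066, OS11G0484450 and OS02G0218750 had no reads in Hacha under excess iron, and their fitted differences of 14.70, 12.05 and 8.90 depend on the prior count and give no size. The same holds for QHB, which had no reads in Hacha under excess iron, for OsFRO2, which had none in Lachit, and for OsCIN2, with 3 reads in Hacha.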

How the results depend on the processing

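Of the 225 tested named genes, the direction and call held in 225 with DESeq2 size factors, 222 with DESeq2 itself, 210 with library totals and 206 with limma on log2(TPM + 1), and in 209 to 220 when 1 Hacha library was left out. A minimum log2 fold change of 1 left 7602 called genes, 3203 higher and 4399 lower, and 889 for the difference between varieties, 669 higher and 220 lower in Lachit, because it sets a stricter question. Leaving out single libraries gave 14462 to 16334 called genes for Hacha. For the difference it gave 2801 to 5281 genes, 1940 to 3405 of them higher and 861 to 2089 lower in Lachit. With library totals 1274 genes were lower in Lachit, and with limma 5555 were higher. The reversals were in genes that were not called. With library totals the log2 fold change was -0.23 for IDEF2 (OS05G0426200), -0.26 for OsHSP101 (OS05G0519700), -0.21 for OsLHY (OS08G0157600) and -0.13 for OsGI (OS01G0182600). With limma it was -0.35 for IDEF2, -0.07 for CatB (OS06G0727200), -0.25 for OsGI and 0.92 for RAB16A (OS11G0454300). Without single libraries it ranged from -0.30 to 0.06 for OsHRZ2 (OS05G0551000), from -0.00 to 0.08 for IDEF2, from -2.35 to 0.37 for ART1 (OS12G0170500), which was called as a fall without excess-iron library 2, from -0.58 to 0.44 for OsHSP101, from -0.01 to 0.15 for OsLHY and from -1.70 to 3.13 for RAB16A, where it was called without control library 1. Beyond the shift of all genes with library totals and the reads of single libraries, the cause was not tested. No paired analysis was possible because each library carries a running number of its own that pairs no samples across the groups. Depth limits the genes below about 1 CPM, and 2 excess-iron libraries limit every comparison.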
